A study of Mus musculus with 90 samples.

Results

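The genes of glycolysis and of the hypoxia response were followed across 90 mouse melanoma tumours. The set was chosen by name: 14 glucose transporters, glycolytic enzymes and lactate transporters, 3 regulators of glycolytic flux, and 16 targets of the hypoxia-inducible factors (HIF) counted together with Hif1a. Of these 33 listed genes, 31 had a probe set that names their symbol alone, out of 18194 genes so measured on the array. Gpi1 and Eno1, both enzymes of glycolysis, were not analysed here. For the 18 members with more than 1 probe set, the brightest on average was used.

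The tumours were subcutaneous melanoma allografts labelled with the genotype Hgftg;Cdk4R24C/R24C and the strain B6.cBrd, which all groups share, controls included. Treated mice received an anti-mouse PD-L1 antibody of the isotype mIgG1 D265A (clone 80), which blocks an inhibitory ligand of T cells. Control mice received the isotype antibody NIP228 (IgG1 D265A, called IgG here) or PBS at 10 ml/kg. The sample labels give 10 mg/kg for the antibodies, and the series' design text also names 20 mg/kg. Antibody-treated tumours were taken after 2 to 12 doses. Responders had shrunk by 5% or more, non-responders had grown, and relapse tumours had regrown after 4 to 10 doses. Stabilization tumours are responders without a change in volume, and growth delay mice had no tumour at first and developed one under treatment. Study 2 held 17 responders, 14 non-responders, 14 IgG, 3 PBS, 3 relapse and 2 growth delay tumours. Study 3 held 10 responders, 9 non-responders, 8 IgG, 4 PBS, 3 relapse and 3 stabilization tumours. Ages of the mice are not given in the labels. The outcome labels were read from tumour growth, so they are not randomized groups.

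Glycolysis splits glucose into pyruvate, and lactate dehydrogenase turns pyruvate into lactate that leaves the cell through monocarboxylate transporters. When oxygen falls, the prolyl hydroxylases that mark HIF-1 alpha for destruction by the von Hippel-Lindau protein slow down, and HIF switches on genes of glucose uptake, glycolysis, angiogenesis and survival. Many glycolytic genes are thus also HIF targets, but growth signals and inflammatory signals raise them in normal oxygen too, in tumour cells as well as in myeloid cells.

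The sequence that HIF binds, the hypoxia response element, has the core ACGTG or GCGTG, and the RefSeq promoters of the members were searched for it. In GRCm38.p6, 29 of the 31 measured members had a promoter entry, and Ndrg1 and Hmox1 had none. In the 250 bases before the most upstream start site, 23 of 29 members (79.3%) held ACGTG or GCGTG on either strand, against 38.6% of 27025 genes. The reverse-strand forms read CACGT and CACGC. The palindrome CACGTG holds ACGTG on both strands in overlapping positions. ACGTG alone was in 55.2% of the members and 16.5% of all genes, and GCGTG in 51.7% and 28.3%. By role, 8 of 12 glycolysis members, 3 of 3 flux regulators and 12 of 14 HIF targets held a match. Printed here are 3 pairs of members that varied together across the tumours, as described further on: Ldha and Pkm of the enzyme chain, Bnip3 and Ankrd37 of the hypoxia response, and the flux regulators Pfkfb3 and Pfkfb4. Each is the 250 bases before the gene's start, 5′ to 3′ on the gene's strand, with matches in capitals. Ldha lies at chr7:46845554-46845803 (plus strand), Pkm at chr9:59656326-59656575 (plus strand), Bnip3 at chr7:138909507-138909756 (minus strand), Ankrd37 at chr8:45999851-46000100 (minus strand), Pfkfb3 at chr2:11553930-11554179 (minus strand) and Pfkfb4 at chr9:108991652-108991901 (plus strand).
Ldha: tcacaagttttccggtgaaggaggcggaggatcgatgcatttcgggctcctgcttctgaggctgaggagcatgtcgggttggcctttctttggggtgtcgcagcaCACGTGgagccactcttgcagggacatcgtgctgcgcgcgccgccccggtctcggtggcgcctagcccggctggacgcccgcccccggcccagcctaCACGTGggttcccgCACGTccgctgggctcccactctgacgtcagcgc
Pkm: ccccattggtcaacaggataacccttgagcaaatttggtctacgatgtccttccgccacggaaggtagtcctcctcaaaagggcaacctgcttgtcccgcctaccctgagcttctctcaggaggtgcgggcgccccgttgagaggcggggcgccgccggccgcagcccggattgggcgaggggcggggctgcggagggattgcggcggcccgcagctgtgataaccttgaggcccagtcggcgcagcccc
Bnip3: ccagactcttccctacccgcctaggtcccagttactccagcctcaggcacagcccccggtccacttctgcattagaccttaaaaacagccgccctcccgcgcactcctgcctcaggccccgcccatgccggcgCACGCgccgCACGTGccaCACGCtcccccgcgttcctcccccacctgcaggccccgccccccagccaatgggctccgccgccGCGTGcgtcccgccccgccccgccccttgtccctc
Ankrd37: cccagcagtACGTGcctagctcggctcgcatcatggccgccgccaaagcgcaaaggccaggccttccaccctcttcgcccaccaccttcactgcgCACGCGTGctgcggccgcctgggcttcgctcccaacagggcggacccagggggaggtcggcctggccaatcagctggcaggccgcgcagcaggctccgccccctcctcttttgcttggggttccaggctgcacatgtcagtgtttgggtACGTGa
Pfkfb3: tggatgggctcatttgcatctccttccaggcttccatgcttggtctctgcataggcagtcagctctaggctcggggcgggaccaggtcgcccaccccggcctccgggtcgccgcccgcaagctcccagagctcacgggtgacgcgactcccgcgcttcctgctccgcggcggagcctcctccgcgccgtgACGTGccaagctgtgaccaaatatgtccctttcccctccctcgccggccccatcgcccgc
Pfkfb4: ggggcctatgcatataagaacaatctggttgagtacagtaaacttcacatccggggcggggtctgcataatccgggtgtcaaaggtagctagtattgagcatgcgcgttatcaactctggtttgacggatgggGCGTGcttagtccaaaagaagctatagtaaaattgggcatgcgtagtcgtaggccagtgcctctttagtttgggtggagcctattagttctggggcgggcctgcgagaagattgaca

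Ldha and Bnip3 each held 5 matches, Ankrd37 held 4, Pfkfb3 and Pfkfb4 held 1 each, and Pkm held 0. A match is only a run of letters and does not show that a factor binds there. The set was chosen to hold HIF targets, so its higher share of matches than over all genes is no test. No genes of like level or promoter base content were compared.

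The array values are log2 intensities. No count of molecules lies behind them, and precision is set by how many arrays a group has. Each tumour has its own animal number in the labels. A p-value sets a difference between group means against the spread between tumours within groups, estimated jointly over the 12 groups. For study 3 the tumours of the PBS, IgG and antibody arms carry separate blocks of animal numbers. In study 2 the numbers run on from arm to arm, with no mixing of IgG and antibody tumours. The labels name no cohort. In both studies a control comparison and a difference between these blocks of animals cannot be told apart. The melanocyte list, 13 measured genes of pigment cells, had a mean between 9.29 and 10.47 in 85 tumours. It was lower in 5 tumours: study 2 non-responder 14 (8.3), study 3 responders 3 (6.69) and 4 (6.55), and study 3 stabilization tumours 1 (6.81) and 2 (8.86). In bulk tissue, fewer cells of a type and less RNA per cell cannot be told apart. Study 3 PBS tumour 2 stood apart in a measure of RNA quality, the log2 difference between the 3 prime and 5 prime control probe sets of beta-actin and Gapdh, which was 5.2 there and at most 0.93 in the other tumours. It is included unless stated. The median SD over the 90 tumours was 0.536 for the members against 0.263 over all genes. Hif1a (0.156), Pgk1 (0.18), Ldha (0.212) and Pgam1 (0.242) lay below that of all genes.

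Responders were compared with non-responders first, with the difference averaged over both studies. Of the 31 members, 13 were higher in responders and 1, Ankrd37, was lower, at an adjusted p under 0.05 from limma. Over all genes 51.2% passed this test, 18.9% higher and 32.3% lower, so the total of 14 members lies near the background. The members' direction was the other way round from that of the array: their median log2 fold change was 0.24 with 25 of 31 above 0, against -0.06 over all genes. With each array centred on its own median, 6 members were higher and 2 lower, beside 2255 genes higher and 9382 lower in place of 3434 and 5885. The members are bright genes: 30 of the 31 are among the 9097 genes above the median level, and of those genes 27.4% were higher and 25.2% lower. The plot of fold changes by role shows the members beside each other.

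**Figure D1:**
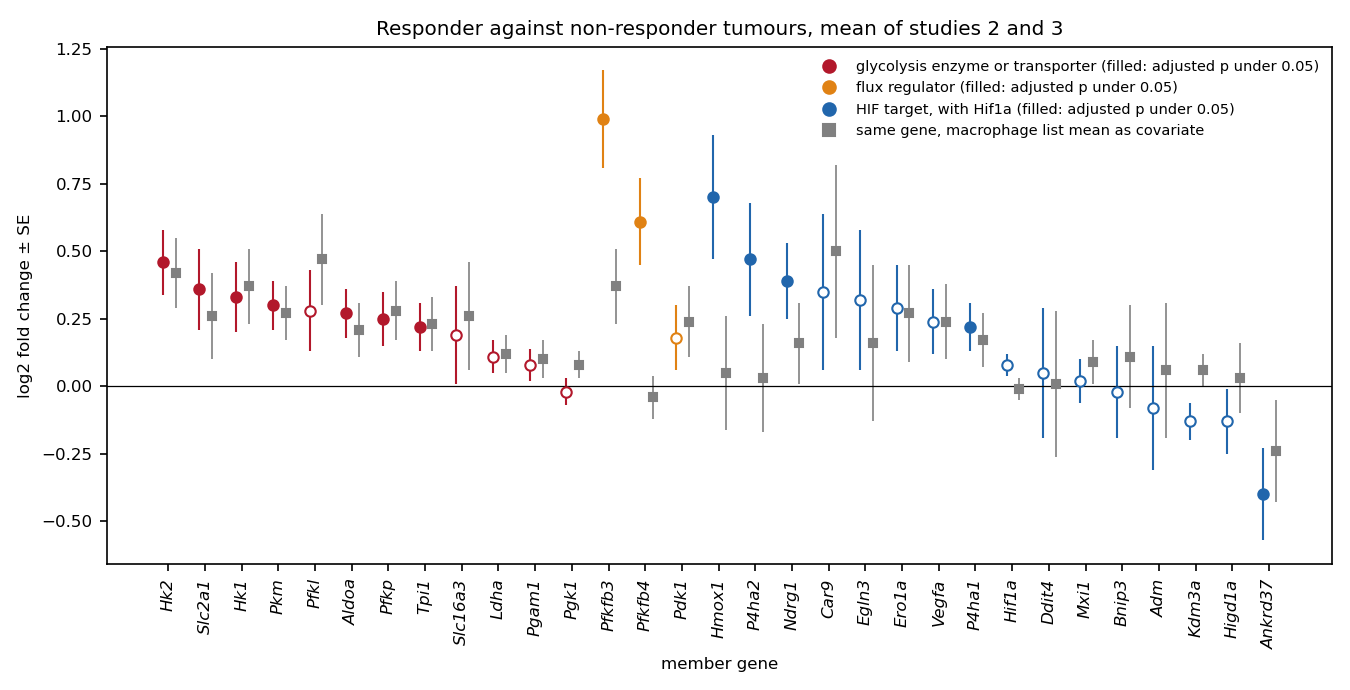
The log2 fold change of responder against non-responder tumours (y axis, ± SE, mean of both studies) for each of the 31 measured members (x axis), grouped by role. Circles are coloured by role and filled at an adjusted p under 0.05, and grey squares give the same gene with the mean of the macrophage list as a covariate. Pfkfb3 stands highest at 0.99 and Ankrd37 lowest at -0.40, and the squares of Pfkfb4, Hmox1 and P4ha2 lie near 0 while those of Hk2 and Pkm lie near their circles.

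Glucose uptake and glycolysis gave 7 higher members of 12, with a median log2 fold change of 0.26 and 11 of 12 above 0. With each array centred on its own median, 2 of these 12 passed, with a median of 0.17 and 10 above 0. The adjusted p-values of single genes below are from the arrays as deposited. Slc2a1 encodes the glucose transporter GLUT1. Its log2 value was 8.94 at the lowest, 10.17 at the median and 11.37 at the highest of 17 study 2 responders, against 8.92, 9.71 and 10.9 over 14 non-responders. The study 3 values were 9.91, 10.32 and 10.58 over 10 responders, against 9.54, 10.07 and 10.7 over 9 non-responders. The groups overlapped in both studies, but 15 of 17 and 9 of 10 responders lay above the median non-responder. Slc2a1 was 0.36 ± 0.15 higher on the log2 scale (SE, adjusted p 0.0381).

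Hexokinase phosphorylates glucose and so traps it in the cell. Hk2, the inducible form, was 9.21 at the lowest, 10.58 at the median and 10.81 at the highest in study 2 responders, against 9.24, 9.91 and 10.66 in non-responders. Study 3 gave 9.38, 10.43 and 11.48 in responders and 9.33, 9.84 and 10.54 in non-responders. Again 15 of 17 and 9 of 10 responders lay above the median non-responder. The rise was 1.38-fold, 0.46 ± 0.12 on the log2 scale (adjusted p 0.00185), and of like size in study 2 (0.47) and study 3 (0.44). Hk1, the form most tissues make at all times, rose by 0.33 ± 0.13 (adjusted p 0.0276).

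Farther down the chain, Pfkp (phosphofructokinase of platelet type) rose by 0.25 ± 0.10, Aldoa (aldolase A) by 0.27 ± 0.09 and Tpi1 (triosephosphate isomerase) by 0.22 ± 0.09, with adjusted p of 0.0289, 0.00912 and 0.0373. Pkm encodes pyruvate kinase M, which makes pyruvate in the last step. Its values in study 2 were 11.93 at the lowest, 12.93 at the median and 13.19 at the highest of the responders and 11.94, 12.52 and 13.02 of the non-responders. In study 3 they were 11.54, 12.28 and 13 in responders and 11.55, 11.85 and 12.35 in non-responders. The groups overlapped, and the mean difference was 0.30 ± 0.09 (1.23-fold, adjusted p 0.00547).

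The other 5 glycolysis members did not pass: Pfkl (liver-type phosphofructokinase, 0.28, adjusted p 0.107), Slc16a3 (the lactate exporter MCT4, 0.19), Ldha (lactate dehydrogenase A, 0.11, adjusted p 0.112), Pgam1 (phosphoglycerate mutase, 0.08) and Pgk1 (phosphoglycerate kinase, -0.02). Ldha and Pgk1 are among the brightest genes on the array, in the top percentile by mean level (99.4 and 99.8), and their SD over tumours was 0.21 and 0.18. The widest range of both was in study 3 responders, from 12.12 to 13.22 for Ldha and from 12.49 to 13.61 for Pgk1.

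The flux regulators showed the largest difference among the members. Pfkfb3 and Pfkfb4 encode 6-phosphofructo-2-kinase/fructose-2,6-bisphosphatases, which set the level of the main activator of phosphofructokinase. In study 3, Pfkfb3 was 6.53 at the lowest, 7.04 at the median and 9.09 at the highest of 10 responders, against 5.56, 5.98 and 6.45 in 9 non-responders. These groups did not overlap, which held for 1 of 31 members and for 0.682% of all genes. In study 2 they did, with 5.97, 6.85 and 8.63 in 17 responders and 5.9, 6.31 and 8.81 in 14 non-responders.

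Over both studies Pfkfb3 was 1.99-fold higher in responders (log2 0.99 ± 0.18, adjusted p 6.54e-05). The difference was 0.60 ± 0.23 in study 2 alone (adjusted p 0.0974) and 1.39 ± 0.29 in study 3 alone (adjusted p 0.000848). A second, dim probe set of Pfkfb3 (mean 4.81) gave -0.12 with an adjusted p of 0.139, so the rise rests on 1 probe set.

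Pfkfb4 went the same way. Its study 3 values were 7.2 at the lowest, 7.71 at the median and 9.99 at the highest in responders and 6.8, 7.12 and 7.62 in non-responders. In study 2 they were 6.66, 7.48 and 8.84 against 6.56, 6.97 and 8.69. All 10 responders of study 3 and 14 of 17 of study 2 lay above the median non-responder. The mean rise was 1.53-fold (log2 0.61 ± 0.16, adjusted p 0.00204). Pdk1, the kinase that keeps pyruvate out of the mitochondrial cycle, gave 0.18 ± 0.12 (adjusted p 0.182), although 2 of its 4 probe sets passed, at 0.33 and 0.52.

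**Figure D2:**
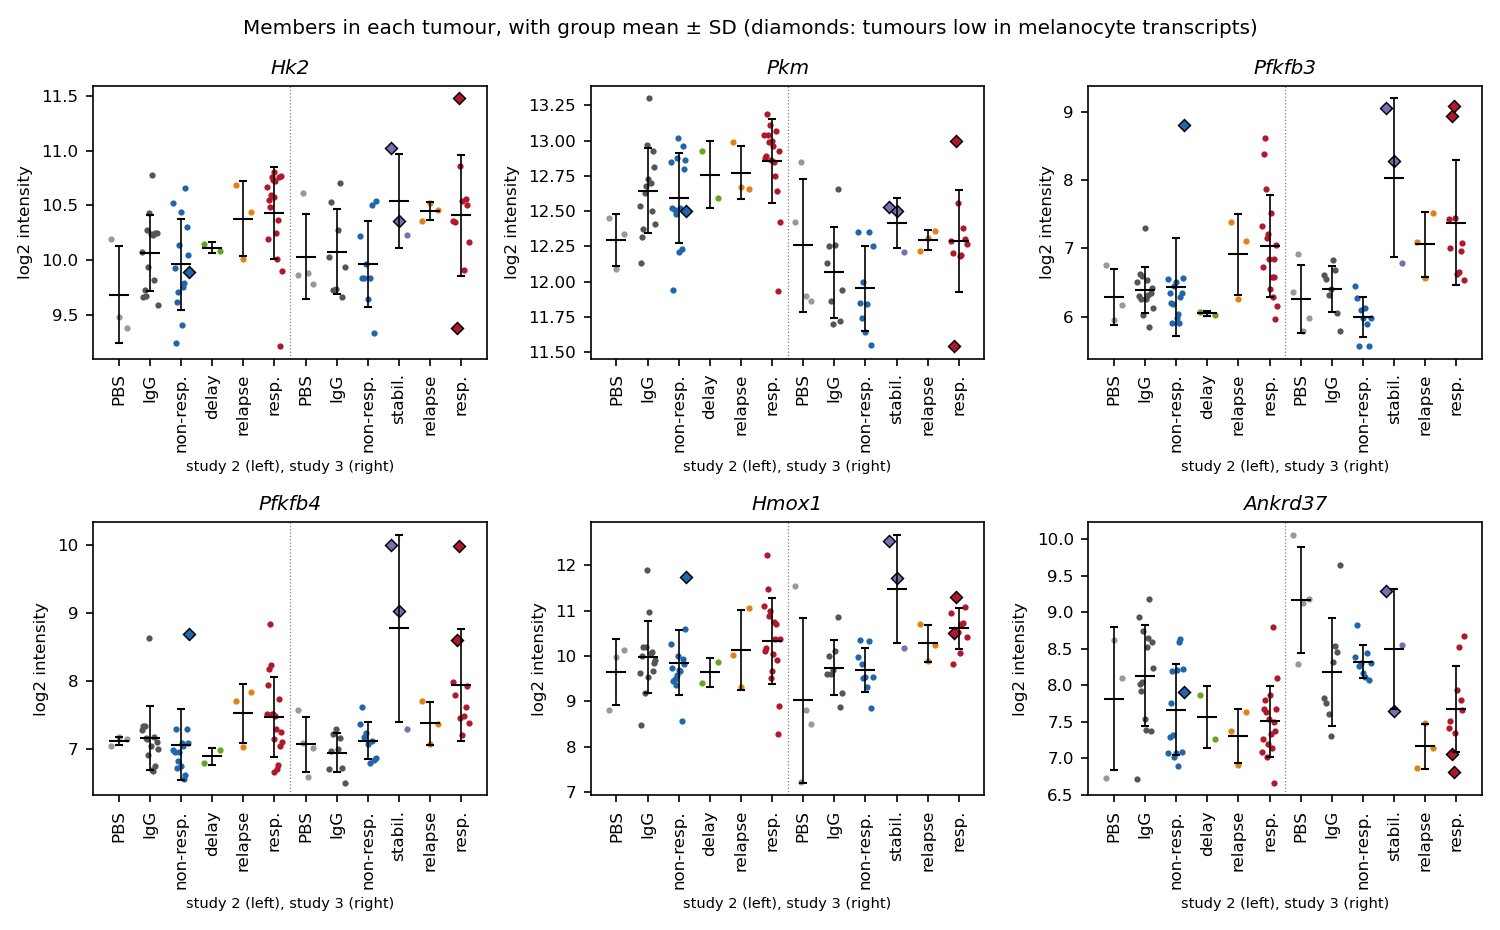
The log2 intensity (y axes) of 6 members in each of the 90 tumours, by study and outcome group (x axes), with bars for the group mean ± SD and diamonds for the 5 tumours low in melanocyte transcripts. In study 3 the Pfkfb3 values of the 10 responders, from 6.53 to 9.09, all lie above those of the 9 non-responders, from 5.56 to 6.45, and the highest Pfkfb3 and Pfkfb4 values of the stabilization group, 9.07 and 10.01, belong to a diamond.

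The HIF targets did not move as one group. Of 16, 4 were higher in responders, 1 was lower and 11 did not pass, with a median log2 fold change of 0.15. The higher ones were Hmox1 (haem oxygenase 1, which breaks down haem and is also a target of NRF2), P4ha1 and P4ha2 (subunits of the prolyl hydroxylase that matures collagen) and Ndrg1 (a stress-responsive gene often used as a hypoxia marker).

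Hmox1 in study 3 was 9.83 at the lowest, 10.62 at the median and 11.3 at the highest in responders, against 8.85, 9.54 and 10.36 in non-responders. In study 2 it was 8.28, 10.37 and 12.22 against 8.56, 9.71 and 11.73. The groups overlapped in both, and all 10 study 3 responders lay above the median non-responder. The mean rise was 1.62-fold (log2 0.70 ± 0.23, adjusted p 0.0115). P4ha2 rose by 0.47 ± 0.21 (adjusted p 0.0474), Ndrg1 by 0.39 ± 0.14 (adjusted p 0.0177) and P4ha1 by 0.22 ± 0.09 (adjusted p 0.0417). Of the 5 Ndrg1 probe sets, 2 passed and the other 3 gave log2 fold changes of 0.05 to 0.35.

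Ankrd37, a small ankyrin-repeat protein whose gene is strongly induced by hypoxia, was the only member that passed the threshold as lower. In study 3 it was 6.81 at the lowest, 7.59 at the median and 8.67 at the highest of the responders, against 8.07, 8.3 and 8.83 of the non-responders. In study 2 the values were 6.66, 7.49 and 8.8 against 6.89, 7.53 and 8.63. In study 3, 8 of 10 responders lay below all non-responders, whereas the study 2 groups lay over each other. The mean fold change was -0.40 ± 0.17 on the log2 scale (adjusted p 0.0447), with -0.15 in study 2 and -0.65 in study 3. Without the 5 tumours low in melanocyte transcripts, it was -0.30 with an adjusted p of 0.144, and Ankrd37 no longer passed. P4ha2 also no longer passed (adjusted p 0.0546), while Pfkl (0.36, adjusted p 0.0443) and Car9 (0.63, adjusted p 0.042) did.

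The other HIF targets did not pass with all tumours. Vegfa, the main angiogenic growth factor, gave 0.24 (adjusted p 0.0908). Car9, the membrane carbonic anhydrase that exports acid, gave 0.35 ± 0.29 (adjusted p 0.305), with 0.83 in study 2 and -0.13 in study 3. Egln3, the HIF prolyl hydroxylase PHD3 and itself a HIF target, gave 0.32 ± 0.26 (adjusted p 0.291), and its second probe set passed at 0.58. Bnip3, a mitophagy receptor, gave -0.02, and Adm, the vasodilator adrenomedullin, gave -0.08 (adjusted p 0.917 and 0.764). Ero1a, the oxidase that helps form disulfide bonds in the endoplasmic reticulum, gave 0.29 ± 0.16 (adjusted p 0.116). Kdm3a, a histone demethylase induced by HIF, gave -0.13 (adjusted p 0.109), Ddit4, an inhibitor of mTORC1 signalling, 0.05 (adjusted p 0.878) and Mxi1, a MYC antagonist, 0.02 (adjusted p 0.822). Higd1a, a mitochondrial protein, gave -0.13 on its brightest probe set, while 2 dimmer ones passed at -0.49 and -0.46. Hif1a, the oxygen-regulated subunit, was at 11.65 on average with an SD of 0.16 and gave 0.08 ± 0.04 (adjusted p 0.115), or -0.01 with arrays centred on their medians. HIF-1 alpha is set mostly by the stability of the protein, which an array does not measure.

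Within study 2 alone, where 2.63% of all genes passed, 0 of 31 members did. Among the members, 29 were above 0 and 15 had an unadjusted p under 0.05, beside 7354 and 4837 of 18194 genes. With array weights 18 members passed there, where 44.2% of all genes did, and without the 5 tumours low in melanocyte transcripts 7 did, where 24.9% of genes did. Within study 3 alone, 36.7% of genes passed (14.4% higher, 22.4% lower), and 3 members were higher (Pfkfb3, Pfkfb4 and Hmox1) and 1 lower (Kdm3a, at -0.33 with an adjusted p of 0.0186). With arrays centred, 3 were higher and 4 lower there, beside 1965 genes higher and 7734 lower in place of 2611 and 4069. The difference between studies itself was tested as an interaction, which 0% of all genes and 0 of 31 members passed. At an unadjusted p under 0.05 there were 3 members, beside 2418 of 18194 genes. These 3 were Pfkfb3, which differed by 0.79 more in study 3, Kdm3a (-0.40) and Pgk1 (-0.21).

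Other genes of the same pathways were read from lists set beside the members. In this comparison of responders with non-responders, 51.2% of all genes passed, 18.9% higher and 32.3% lower. Of 19 further glycolysis genes, 3 were higher in responders and 2 lower, with a median of 0.02. The higher ones were Hk3 (the hexokinase of myeloid cells, 1.44 ± 0.27, adjusted p 6.68e-05), the neuronal and leukocyte glucose transporter Slc2a3 (0.51, adjusted p 0.00731) and Pgm1 (0.36, adjusted p 0.00962). Gapdh gave 0.15 (adjusted p 0.364). Of 23 further HIF targets, 6 were higher and 3 lower, among them Rora (0.69), Gys1 (glycogen synthase, 0.39) and Tfrc (the transferrin receptor, -0.62).

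Of 10 genes of oxygen sensing, 2 were higher and 1 lower: Epas1, which encodes HIF-2 alpha and is rich in endothelium and macrophages (0.85, adjusted p 0.00111), Hif1an, the asparagine hydroxylase of HIF (0.53), and Cited4 (-0.19). Egln1, Vhl and Arnt, which encode the main HIF hydroxylase, the von Hippel-Lindau protein and the partner of the HIF alpha subunits, gave 0.21, -0.03 and 0.02 (adjusted p 0.0764, 0.651 and 0.646), where centring turned Arnt to -0.06. Of 11 genes of the NRF2 and haem response, 7 were higher and 0 lower, with a median of 0.18. They included Fth1 (ferritin heavy chain, 0.18), Bach1 (a haem-sensing repressor, 0.28) and Slc40a1 (the iron exporter ferroportin, 1.11), but Nqo1 gave 0.05 (adjusted p 0.685), or -0.04 with arrays centred. Of 14 cell cycle genes, 4 were lower and 0 higher, with Bub1 at -0.45, Cdk1 at -0.41 and Ccnb2 at -0.39. With 18.9% of all genes higher and 32.3% lower, the counts of these lists are not read as results about the pathways.

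Markers of other cells moved with the responder comparison too. The macrophage list (12 of 12 genes measured) had a mean between 8.37 and 11.65 (median 10) in study 2 responders, 8.25 and 11.64 (median 9.34) in non-responders and 8.95 and 11.41 (median 9.58) in IgG tumours. In study 3 it lay between 9.68 and 11.9 (median 10.7) in responders, 9.33 and 10.24 (median 9.67) in non-responders and 9.09 and 10.06 (median 9.71) in IgG tumours. The fibroblast list (12 of 13 genes measured) had medians of 9.06 and 8.31 in study 2 responders and non-responders and 10.35 and 9.34 in study 3. The T and NK cell list (9 of 10 genes measured) had 8.18 and 7.2, and 9.05 and 7.39.

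With the macrophage list mean as a covariate, 0 of 31 members passed in the responder comparison. Under that fit 0.478% of all genes passed. The median log2 fold change was 0.26 over the glycolysis members, as before, with 12 of 12 above 0. It went from 0.61 to 0.24 over the flux regulators, with 2 of 3 above 0, and from 0.15 to 0.07 over the HIF targets, with 14 of 16 above 0 in place of 11. Among the enzymes, Hk2 gave 0.42 (adjusted p 0.0892), Hk1 0.37 (adjusted p 0.139) and Pkm 0.27 (adjusted p 0.138). The macrophage covariate took Pfkfb4 from 0.61 to -0.04, Hmox1 from 0.70 to 0.05 and P4ha2 from 0.47 to 0.03, and Pfkfb3 from 0.99 to 0.37 (adjusted p 0.131). With the fibroblast list as covariate, where 4.48% of genes passed, Hk2 (0.41, adjusted p 0.0479) and Pfkfb3 (0.52, adjusted p 0.0254) passed. These lists rise and fall with each other, and which cells carried the transcripts was not tested.

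The members were also set against the macrophage list as single tumours varied around their group means. Pfkfb4 followed the macrophage list with a Pearson r of 0.9 (Spearman 0.88) over 90 tumours, and with 0.95 in study 2 and 0.9 in study 3. Pfkfb3 had r = 0.75 (Spearman 0.62) and Hmox1 0.61 (Spearman 0.53), and Kdm3a ran the opposite way at -0.61. Pkm (0.09), Hk2 (0.07) and Hk1 (-0.08) had next to no relation with that list, and Adm (-0.14), Bnip3 (-0.18) and Ankrd37 (-0.2) a weak inverse one. Without the 2 tumours farthest from the median of the list, study 2 IgG 7 and study 2 non-responder 14, r was 0.87 for Pfkfb4, 0.69 for Pfkfb3 and 0.52 for Hmox1. Pfkfb4 also ran with the fibroblast (0.86) and endothelial (0.88) lists and against the melanocyte list (-0.75). All of these values come from the same arrays, which share each tumour's RNA and its normalization.

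**Figure D3:**
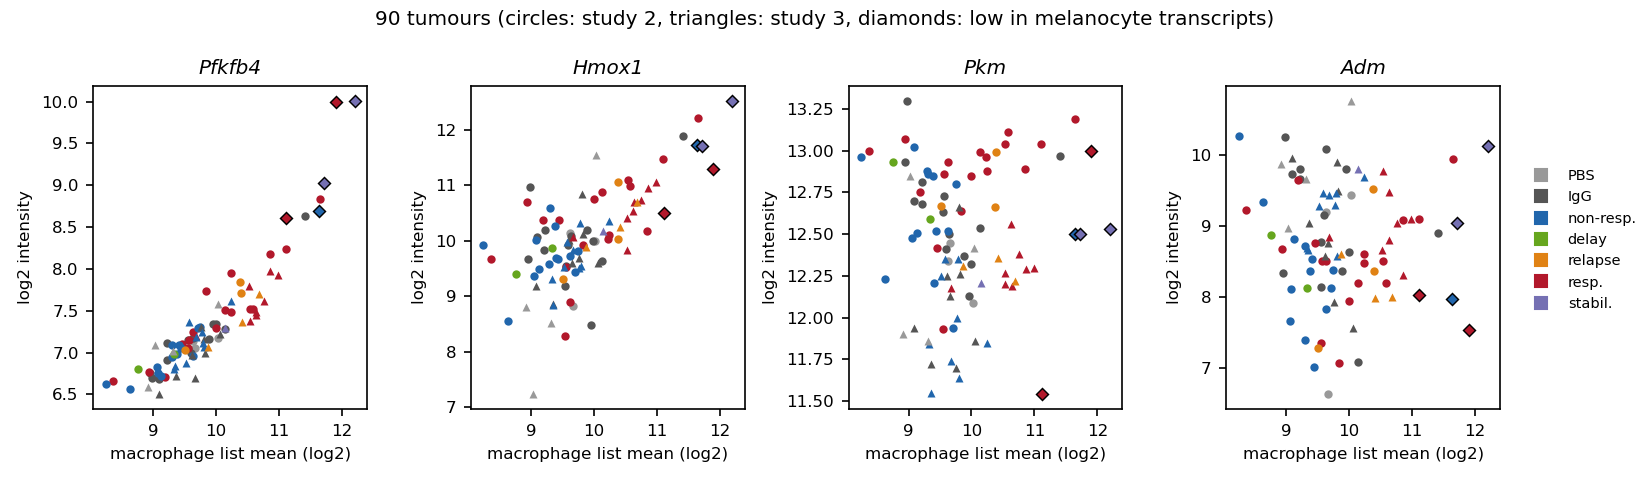
The log2 intensity of Pfkfb4, Hmox1, Pkm and Adm (y axes) against the mean of the macrophage list (x axes, log2) in 90 tumours, coloured by outcome, with circles for study 2, triangles for study 3 and diamonds for the 5 tumours low in melanocyte transcripts. Pfkfb4 rises along a narrow band (Pearson r 0.9 around group means), Hmox1 along a wider one (0.61), and Pkm (0.09) and Adm (-0.14) form clouds.

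The glycolysis members and most HIF targets varied together. After group means were subtracted, the mean Pearson r was 0.67 over 66 pairs of glycolysis members, 0.47 over 120 pairs of HIF targets and 0.37 between the roles, against 0.01 over all pairs of genes. It was 0.69, 0.52 and 0.36 in study 2 and 0.67, 0.41 and 0.4 in study 3. Tpi1 and Ldha had the closest relation (0.92), followed by Tpi1 and Pkm and by Hk1 and Pfkl (0.9 each). Adm ran with Egln3 (0.88), Bnip3 (0.87) and Ankrd37 (0.86), and Slc2a1 with Vegfa (0.84). Pfkfb3 and Pfkfb4 ran with each other at 0.83 and against Kdm3a at -0.67 and -0.66, but with the other flux member, Pdk1, r was 0.14 and -0.1. Kdm3a and Hmox1, both HIF targets, gave -0.32. Higd1a ran with Bnip3 (0.83) but against Hk1 (-0.44), so not all HIF targets followed the enzymes.

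**Figure D4:**
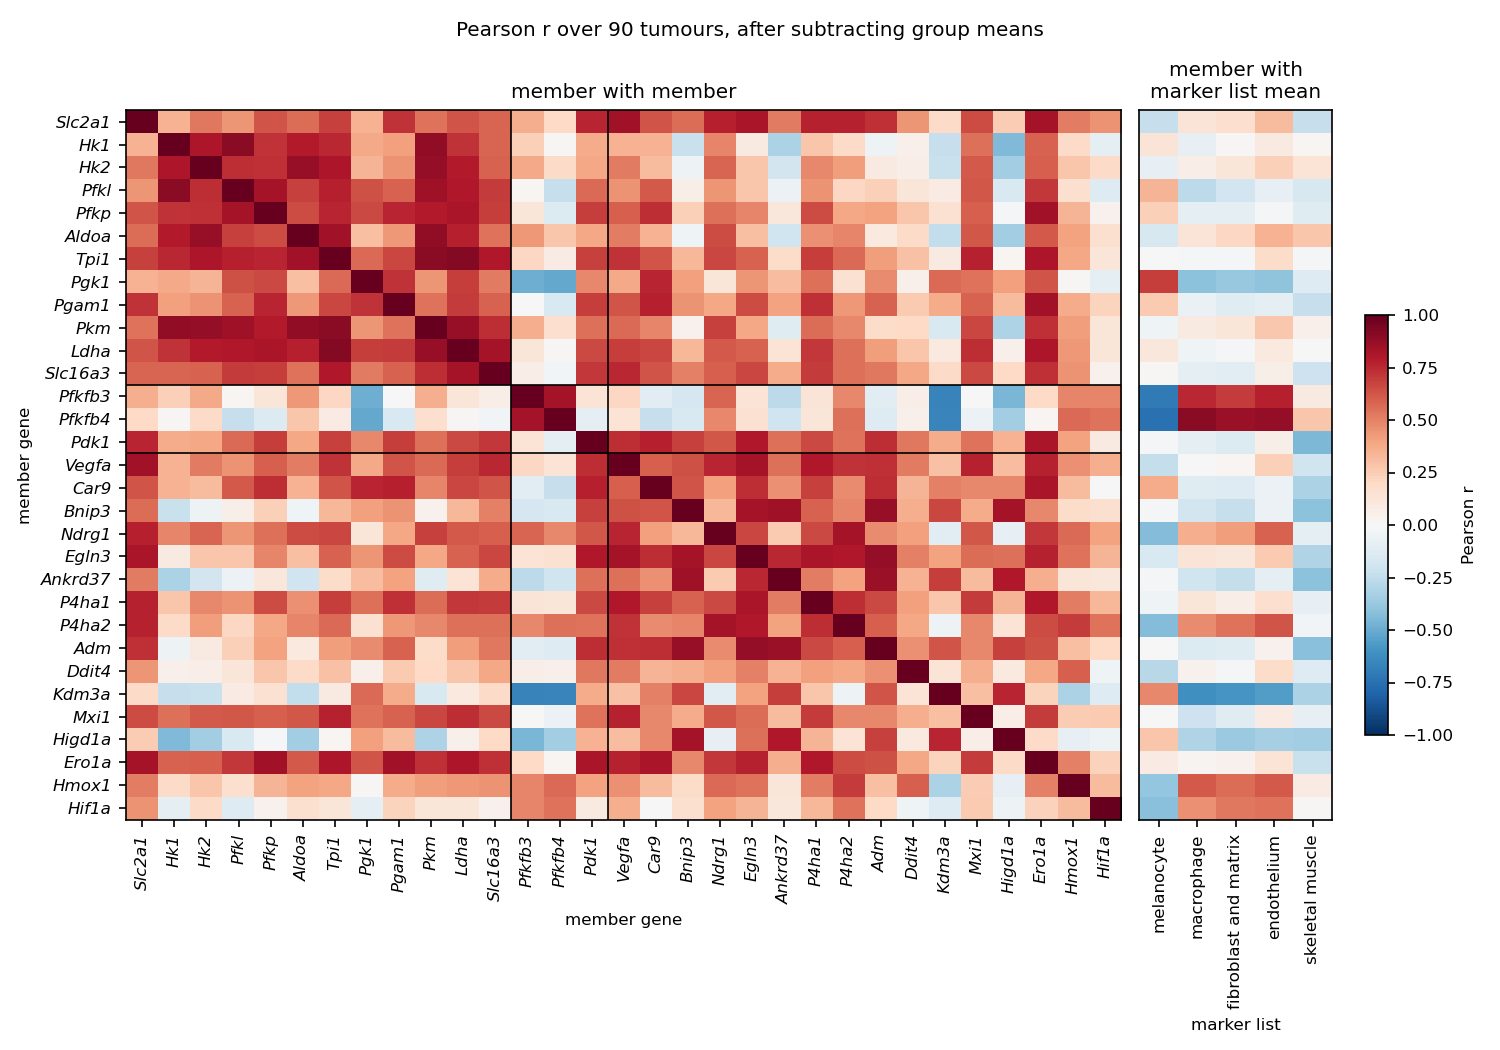
Pearson r between members (left panel, both axes list the 31 members, lines part the 3 roles) and between members and the means of 5 marker lists (right panel), over 90 tumours after group means were subtracted, with red for positive and blue for negative values. The glycolysis block is red throughout (mean r 0.67), and Pfkfb3 and Pfkfb4 stand apart from it, with r of 0.75 and 0.9 with the macrophage list and -0.71 and -0.75 with the melanocyte list.

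Against IgG controls, responders had 4 higher members and 1 lower, with a median log2 fold change of 0.1, where 35.4% of all genes passed (15.3% higher, 20.1% lower) with a median of -0.04. The members' share was thus below the background. With arrays centred it was 4 higher and 2 lower, beside 2064 genes higher and 7267 lower in place of 2784 and 3652. Higher were Pfkfb3 (0.81 ± 0.19, adjusted p 0.00112), Pfkfb4 (0.65 ± 0.16, adjusted p 0.00252), Hmox1 (0.61 ± 0.24, adjusted p 0.0387) and Hk2 (0.35 ± 0.12, adjusted p 0.0207). Pfkfb3 in IgG tumours was 5.85 at the lowest, 6.33 at the median and 7.3 at the highest in study 2, and 5.79, 6.48 and 6.83 in study 3. The overlap with responders was partial: 7 of 10 study 3 responders and 5 of 17 study 2 responders lay above all IgG tumours. Ankrd37 was lower (-0.57 ± 0.18, adjusted p 0.011). In IgG tumours it was 6.72, 8.14 and 9.18 in study 2 and 7.3, 8.07 and 9.65 in study 3.

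In study 2 alone 27.3% of genes passed against IgG, with Hk1 (0.43) and Pfkfb3 (0.64) higher and Ankrd37 (-0.63) lower. In study 3 alone 17.4% passed, with Pfkfb3 (0.97) and Pfkfb4 (0.996) higher. Pfkfb3 was thus the one member past the threshold in both studies.

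Non-responders were then compared with IgG tumours. None of the 31 members passed, with a median of -0.09, 2 of 31 above 0 and 0 at an unadjusted p under 0.05, and 0.0055% of all genes did. By study 0% and 0.693% of genes and 0 members passed, with 6 members at an unadjusted p under 0.05 in study 2 and 0 in study 3. Over all 18194 genes, 749 in study 2 and 2654 in study 3 had such a p. IgG against PBS gave 0 members where 0.0055% of genes passed, and 1 member, Ddit4, had an unadjusted p under 0.05, beside 1185 of 18194 genes. Without study 3 PBS tumour 2 it was 0 members too. The 2 growth delay tumours against IgG gave 0 members, with 0% of genes called and 0 members at an unadjusted p under 0.05. A p that misses the threshold does not show that these groups are alike.

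Relapse tumours, 3 in each study, were compared with the groups before and beside them. Against responders 0 of 31 members and 0% of genes passed, with a median of -0.14. At an unadjusted p under 0.05 there was 1 member, Bnip3 (-0.54), beside 962 of 18194 genes. Against non-responders 24% of genes passed (9.96% higher, 14.1% lower), and 2 members were higher and 1 lower. Hk1 was higher by 0.57 ± 0.20 (adjusted p 0.0361). Its values were 11.44, 11.01 and 11.04 in the study 2 relapse tumours and 10.25, 10.39 and 10.36 in those of study 3. All 6 lay above the median non-responder of their study, which was 10.72 and 9.64.

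Pfkfb3 was higher by 0.78 ± 0.29 (adjusted p 0.0414), with 7.39, 6.25 and 7.11 in study 2 and 7.1, 6.57 and 7.52 in study 3. Ankrd37 was lower, at -0.76 ± 0.27 (adjusted p 0.0372), with 7.37, 6.9 and 7.63 in study 2 and 6.87, 7.48 and 7.14 in study 3. In study 3 the relapse and non-responder groups did not overlap for 5 of 31 members, against 20.3% of all genes. Pfkfb3 lay above, and Ankrd37, Bnip3, Higd1a and Kdm3a lay below. Without relapse tumour 1 or 3 of either study the count fell from 3 to 0, and without tumour 2 of either study it was 2. The share of all genes that passed in those fits is not given here. Centring the arrays moved the median of all genes in this comparison from -0.06 to -0.18, and then 1 member was higher and 4 lower, beside 946 genes higher and 6888 lower in place of 1813 and 2557. Against IgG 0 members and 1.09% of genes passed. At an unadjusted p under 0.05 there were 5 members, beside 5851 of all 18194 genes. Hk1 (0.52) and Pfkfb3 (0.59) lay above 0 and Bnip3 (-0.66), Ankrd37 (-0.93) and Higd1a (-0.46) under it.

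Tissue lists moved with the relapse comparison as well. The macrophage list mean was 10.39, 9.51 and 10.38 in the study 2 relapse tumours and 10.69, 9.87 and 10.42 in those of study 3, against non-responder medians of 9.34 and 9.67. The fibroblast list mean was 10.1, 8.99 and 11.26 and then 10.9, 9.7 and 10.43, against 8.31 and 9.34. In study 3 all 3 relapse tumours lay above the highest non-responder for the fibroblast list (9.69), and the adipocyte list was 9.19, 6.87 and 9.98 there against a non-responder median of 6.2. With the macrophage or the fibroblast list as a covariate 0 members passed against non-responders, where 8.02% and 2.76% of genes did. The part of the adipocyte list was not tested.

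The stabilization group of 3 study 3 tumours had the highest values of several HIF targets. Against non-responders 10 members were higher and 0 lower, with a median of 0.46 and 28 of 31 above 0, where 31.3% of genes passed (13.3% higher, 18% lower) with a median of -0.1. Centring left 8 higher and 0 lower, beside 2069 genes higher and 5025 lower in place of 2419 and 3269. By role, 7 of 16 HIF targets, 2 of 3 flux regulators and 1 of 12 glycolysis members were higher. In stabilization tumours 1, 2 and 3, Pfkfb3 was 9.07, 8.28 and 6.78, all above the highest non-responder at 6.45. The groups did not overlap for 3 of 31 members, Pfkfb3, P4ha1 and P4ha2, against 5.66% of genes. Pfkfb3 was 4.16-fold higher (log2 2.06 ± 0.42, adjusted p 0.000889).

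Pfkfb4 was 10.01, 9.03 and 7.29 (1.65 ± 0.37, adjusted p 0.00161), P4ha2 10.74, 8.98 and 8.48 (1.69 ± 0.47, adjusted p 0.00614) and Hmox1 12.53, 11.71 and 10.18 (1.78 ± 0.53, adjusted p 0.00947). Slc2a1 was 12.28, 10.7 and 10.66 (1.11 ± 0.34, adjusted p 0.0106) and tumour 1 had the highest value of the 90 tumours. Ndrg1 (1.13), P4ha1 (0.79), Vegfa (0.74), Mxi1 (0.46) and Hif1a itself (0.39, adjusted p 0.00384) were also higher. Tumour 1 was the highest of the 3 for each of these 10 members.

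Tumours 1 and 2 are those low in melanocyte transcripts, and their macrophage list means were 12.2 and 11.72 against 10.15 in tumour 3. Without tumour 1 the count of called members fell from 10 to 0, and without tumour 3 it was 13. Against IgG 9 members were higher and 0 lower, where 22.2% of genes passed (10.7% higher, 11.5% lower), and without tumour 1 the count was 0. Against responders 0 members and 0.11% of genes passed, although 30 of 31 were above 0 (median 0.34) and 12 had an unadjusted p under 0.05. Over all 18194 genes, 7987 were above 0 (median -0.03) and 1420 had an unadjusted p under 0.05. Without tumour 2 the count of called members against responders was 1 and without tumour 3 it was 6. The share of all genes that passed in these fits without a tumour is not given here. The changes in count are therefore not read as a result about the members. In the same tumours 10 of 14 cell cycle genes were lower than in non-responders and 0 higher, among them Cdk1 (-1.05). Of 11 NRF2 and haem genes, 6 were higher and 0 lower, among them the cystine transporter Slc7a11 (1.27). Of all genes, 13.3% were higher and 18% lower in that comparison. The part of the low melanocyte signal in these values was not tested.

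Across all outcome groups within a study, 0 members passed in study 2, where 6.1% of genes did. There 5 members, Hk1, Hk2, Pfkp, Pkm and Pfkfb3, had an unadjusted p under 0.05, beside 4843 of 18194 genes. Without PBS tumour 1 of study 2, Hk1 and Hk2 passed (adjusted p 0.0497 and 0.0389). The share of all genes that passed in that fit is not given here, so this change is not read as a result about the members. In study 3, 9 of 31 passed, where 47.5% of genes did: Pfkfb3, Pfkfb4, Ndrg1, Ankrd37, P4ha1, P4ha2, Kdm3a, Hmox1 and Hif1a. None of the 12 glycolysis members was among them. The count in study 3 lies below the background. Without stabilization tumour 1 it was 5, with the share of all genes in that fit not given here.

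Last, the mean log2 value over the 12 glycolysis members was set beside that over the 16 HIF targets in each of the 12 groups. Levels of different probes are not on one scale, so the difference of the 2 means is compared between groups only. In study 2 the glycolysis mean was highest in responders (11.65 ± 0.29, SD), then in relapse (11.56 ± 0.26), growth delay (11.5 ± 0.16), IgG (11.44 ± 0.31), non-responder (11.36 ± 0.32) and PBS tumours (11.11 ± 0.1). Neighbours in this order differed by less than the larger of their SDs. The HIF target mean had another order, with IgG first (9.72 ± 0.45), then responders (9.64 ± 0.46), relapse (9.46 ± 0.56), growth delay (9.42 ± 0.37), non-responders (9.38 ± 0.36) and PBS (9.23 ± 0.71).

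In study 3 the stabilization group was highest in both, at 11.38 ± 0.17 for glycolysis and 10.15 ± 0.42 for the HIF targets. The relapse group was next for glycolysis (11.28 ± 0.11) and last for the HIF targets (9.29 ± 0.17). Responders had 11.19 ± 0.33 and 9.54 ± 0.32, and non-responders 11.01 ± 0.29 and 9.51 ± 0.27. IgG tumours had 11.08 ± 0.35 and 9.4 ± 0.46, and PBS tumours 11.18 ± 0.4 and 9.76 ± 0.62. The difference between the 2 means thus ran from 1.98 ± 0.07 in relapse to 1.23 ± 0.25 in stabilization tumours, with responders at 1.65 ± 0.26, non-responders at 1.5 ± 0.17, IgG at 1.68 ± 0.23 and PBS at 1.42 ± 0.6. In study 2 it was 2.1 ± 0.4 in relapse, 2.07 ± 0.21 in growth delay, 2.01 ± 0.33 in responders, 1.98 ± 0.33 in non-responders, 1.88 ± 0.78 in PBS and 1.72 ± 0.35 in IgG tumours. Relapse came first in both studies, but in study 2 by less than the SD. Without the 5 tumours low in melanocyte transcripts 1 stabilization tumour remained. Its glycolysis mean was 11.27, behind relapse (11.28), and its HIF target mean of 9.95 was still the highest of study 3. Its difference was 1.32, still the lowest of study 3. Without PBS tumour 2, whose own difference was 2.22, PBS had 1.15 ± 0.33 and lay lowest instead. These means are given with no test, since the members were chosen with results known.

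**Figure D5:**
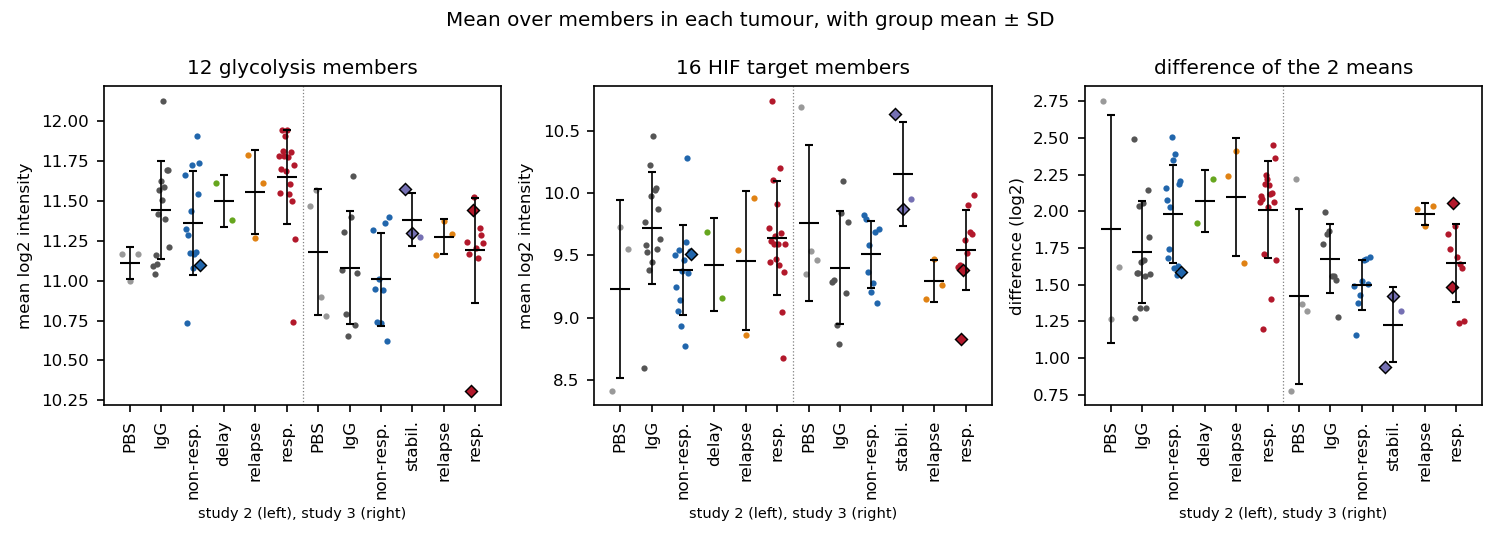
The mean log2 intensity over the 12 glycolysis members, over the 16 HIF targets and the difference of these means (y axes) in each of the 90 tumours, by study and outcome group (x axes), with bars for the group mean ± SD and diamonds for the 5 tumours low in melanocyte transcripts. In study 3 the group mean of the difference is highest in relapse tumours (1.98 ± 0.07) and lowest in stabilization tumours (1.23 ± 0.25), with single tumours of other groups beyond them, such as PBS tumours 2 (2.22) and 1 (0.78).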

How the data were processed

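Total RNA of 90 tumours was hybridised to 1 array each (45101 probe sets). Biotin-labelled cRNA was made from 800 ng, per the labels' protocols. The deposited values are log2 intensities. The authors summarised them with RMA and used limma, per the submitters' processing notes, which give no version, and a joint or separate normalization of the studies is not stated there.

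The fit used 34958 probe sets that name 1 symbol and not the 932 with several or the 9211 without a symbol. A gene with several was represented by its brightest on average. All arrays were fitted together in limma 3.58.1 (R 4.3.3) with 1 mean for each of 12 study-by-outcome groups. Contrasts present in both studies were averaged with equal weights. The 2-sided p-values were adjusted over 18194 genes by Benjamini-Hochberg, and the threshold was 0.05. The script was tested on simulated data.

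The members and lists were chosen with earlier results of these data known, and no p is adjusted over a list alone. The text names all members, up to 3 genes a pathway list by p among those called, and Gapdh, Slc2a3, Epas1, Egln1, Vhl, Arnt and Nqo1. Marker lists are means of log2 values per tumour, and correlations use values less their group means.

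Alternatives were another variance model, array weights, averaging all of a gene's probe sets, bright genes alone, centred or quantile-normalized arrays, only the groups compared, a threshold of 0.01, tissue lists and a 3 prime to 5 prime measure as covariates, and leaving out tumours. Adjusted p-values are from limma. The array pair most alike had a correlation of 0.9975, so no array was treated as a duplicate. Sequences are from RefSeq, GRCm38.p6. No sequence was taken from the tumours.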

Additional observations from a re-analysis of the deposited data

Results flagged for a closer look

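Single tumours were checked in 124 pairs of a member and a group of 4 to 10 tumours. Only the IgG, PBS, non-responder and responder groups of study 3 have that size, so no study 2 tumour could be flagged. In 14 of the pairs, 1 tumour lay far from the others. Chance gives about 1 in 20 pairs, but members vary together and the pairs are not independent, so this rate is no test. Of the 14, 6 belong to study 3 responder 3 and 4 to responder 4. Study 3 responder 3, low in melanocyte transcripts and with high B cell and adipocyte list means (9.71 and 11.14), was the lowest of 10 responders for 6 members. These were Tpi1 at 11.65 (others 12.49 to 13.37), Ldha at 12.12 (12.88 to 13.22), Slc16a3 at 4.94 (6.42 to 7.8), Egln3 at 6.99 (8.26 to 9.63), P4ha1 at 8.13 (9.19 to 9.64) and Mxi1 at 8.39 (9 to 9.56).

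Study 3 responder 4, low in melanocyte transcripts with a skeletal muscle list mean of 13, was the highest for Pfkfb4 at 9.99 (others 7.2 to 8.61), Ndrg1 at 10.31 (8.71 to 9.52) and P4ha2 at 9.84 (7.43 to 8.45), and the lowest for Pdk1 at 8.79 (9.25 to 9.59). Study 3 PBS tumour 1 was the highest of 4 for Vegfa at 8.9 (8.14 to 8.22) and Egln3 at 11.07 (8.59 to 8.87). Study 3 PBS tumour 2, which stands apart in the 3 prime to 5 prime difference (5.2), was the highest for Hk2 at 10.61 (9.78 to 9.88). Study 3 non-responder 2 was the highest of 9 for Ankrd37 at 8.83 (8.07 to 8.44).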

How the results depend on the processing

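No paired analysis was possible because the animal numbers differ for every tumour and the groups share no replicate numbers. The counts are of 31 members past the threshold, and the cause of each change was not tested. The share of all genes that passed can move with the setting too, and most counts below stand without it. In study 2 responder against non-responder, for example, array weights took that share from 2.63% to 44.2%. A changed count is therefore not read as a result about the members. The macrophage and fibroblast covariates, and the 3 prime to 5 prime covariate without study 3 PBS replicate 2 (PBS 2, whose difference of 5.2 is far from the rest), were chosen after seeing the data.

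Responder against non-responder went from 14 to 8 with centred arrays, 5 at a threshold of 0.01, 0 with the macrophage and 2 with the fibroblast covariate. In study 2 it went from 0 to 18 with array weights, 1 with the mean of all probe sets, 1 with centred arrays, 1 with the muscle covariate, 7 without the 5 tumours low in melanocyte transcripts and 1 with the 3 prime to 5 prime covariate without PBS 2. In study 3 it went from 4 to 9 with weights, 7 centred, 1 at 0.01, 1 without the 5 tumours, 0 with the macrophage and 1 with the fibroblast covariate, and 8 with the covariate without PBS 2. Responder against IgG went from 5 to 12 with weights, 2 at 0.01, 0 and 2 with the macrophage and fibroblast covariates and 9 with the covariate without PBS 2. In study 2 it went from 3 to 13 with weights and 0 at 0.01. In study 3 it went from 2 to 4 with weights, 1 among bright genes, 1 at 0.01, 1 without the 5 tumours, and 0 with the macrophage, fibroblast and no-PBS-2 covariates. Relapse against non-responder went from 3 to 12 with weights, 1 with the mean of probe sets, 5 centred, 1 with quantile normalization, 0 at 0.01, 5 without the 5 tumours and 0 with either tissue covariate. Against IgG it went from 0 to 9 with weights, 3 centred, 2 with only the groups compared, 1 with the 3 prime to 5 prime covariate with or without PBS 2, and 2 without the 5 tumours. Stabilization went from 10 against non-responders and 9 against IgG to 0 without the 5 tumours and 0 with either tissue covariate, and against IgG to 5 with only the groups compared and 5 at 0.01. Against responders it went from 0 to 5 with weights, and IgG against PBS from 0 to 3. The test over all groups went from 0 to 17 with weights, 1 with the muscle covariate and 4 without the 5 tumours in study 2. In study 3 it went from 9 to 19 with weights, 5 at 0.01, 3 without the 5 tumours, and 1 and 2 with the macrophage and fibroblast covariates.

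Leaving out 1 tumour at a time gave 0 to 2 members for relapse against non-responder, 0 to 13, 0 to 6 and 0 to 11 for stabilization against non-responder, responder and IgG, 0 to 2 for all groups of study 2 and 5 to 11 for those of study 3. Relapse against responder and IgG, IgG against PBS and growth delay against IgG stayed at 0.

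Single genes turned sign in 31 of their alternatives in responder against non-responder. With the macrophage covariate these were Pfkfb4 (-0.04, and -0.03 in study 3), Pgk1 (0.08), Bnip3 (0.11), Adm (0.06), Kdm3a (0.06), Hif1a (-0.01), Bach1 (-0.01), Vhl (0.01) and Nqo1 (-0.19). With the fibroblast covariate they were Pgk1 (0.05), Bnip3 (0.12), Adm (0.02), Kdm3a (0.02), Hif1a (0), Vhl (0.01) and Nqo1 (-0.15). Without the 5 tumours they were Pgk1 (0.04), Bnip3 (0.02), Adm (0.03) and Nqo1 (-0.05). Array weights turned Pgk1 (0.05), Adm (0.11) and Nqo1 (-0.01), centring turned Hif1a (-0.01), Arnt (-0.06) and Nqo1 (-0.04), and quantile normalization turned Pgk1 (0) and Arnt (-0.03). Pgk1 gave 0 without PBS 2, and Arnt -0.07 with the mean of probe sets. Of these genes, Pfkfb4 and Bach1 had passed the test. Another 257 alternatives of single genes lost significance and 13 gained it.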
